A study of Mus musculus with 4 samples.

Results

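The 54 genes described here encode the machinery that marks replication origins in the G1 phase, fires them in the S phase and copies DNA at the fork. They were listed by name for their place in known complexes. The list was drawn up with earlier results of these data known, so counts over it describe the set and do not test it. The set holds 6 genes of the origin recognition complex, 3 loading factors, 6 subunits of the MCM2-7 helicase, the relatives Mcm8 and Mcm9, 10 firing factors, 12 polymerase subunits, 6 clamp and clamp loader genes, 3 RPA genes, 2 Okazaki fragment enzymes and 4 fork proteins. All 54 symbols were among the 32230 rows of the deposited table, and all 54 reached the mean of 1 TPM at which 14621 genes were tested. TPM is a transcript level corrected for gene length and scaled to the same total in every library, so that levels can be compared between genes.

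The RNA came from 4F2A mouse embryonic fibroblasts (MEFs) of male homozygous embryos at mid-gestation. In 4F2A cells doxycycline switches on Oct4, Sox2, Klf4 and c-Myc, the factors used for reprogramming, and all 4 libraries received 2 μg/mL doxycycline for 48 h in a medium with LIF and KnockOut Serum Replacement. On day 0 the cells were also given DMSO, the solvent, or CX-5461, a compound known as an inhibitor of RNA polymerase I and a binder of G-quadruplex DNA, in either case for 1 h, and RNA was taken on day 2. Each group had 2 libraries, numbered replicate 2 and replicate 3. The dose of CX-5461 is not given in the sources used here, and cells without doxycycline were not analysed here.

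An origin is licensed when the origin recognition complex, CDC6 and CDT1 load a pair of MCM2-7 rings onto DNA, and geminin keeps CDT1 from doing so again after S phase has begun. Firing needs the kinase DDK and the factors that attach CDC45 and GINS to MCM2-7, which turns the ring into the active CMG helicase. Polymerase alpha-primase then starts each strand, polymerases epsilon and delta extend the leading and lagging strands on the PCNA clamp, and FEN1 and LIG1 finish Okazaki fragments. In fibroblasts the mRNAs of many of these genes follow the cell cycle, since E2F factors switch them on towards S phase and cells at rest hold little of them.

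The libraries held 34960078 to 37280441 reads in genes by a reconstruction from the TPM values. Across genes, log2 profiles correlated at 0.984 and 0.986 within groups and at 0.949 to 0.954 across groups. Mitochondrially encoded genes took 15.3% of the TPM in DMSO replicate 3 and 9.20 to 9.96% in the other 3 libraries, and the calls of the 54 genes below were also made without that library. Fibroblast markers were abundant (summed level 9883 to 12139 TPM with DMSO and 8569 to 8850 TPM with CX-5461). Of the 9, 4 were lower with CX-5461, where 8.21% of all genes tested were lower and 11.6% higher. Of the other marker lists, the macrophage list had 5 of 6 genes tested and 2 higher with CX-5461. Its summed level was 576 to 579 against 840 to 937 TPM. Those 2 were Lyz2 (528 and 508 TPM with DMSO, 775 and 855 TPM with CX-5461) and Adgre1 (4.48 and 4.99 against 10.4 and 8.98 TPM, adjusted p = 0.0137 by limma). Of the other 4, Itgam was at 4.25 to 4.41 against 5.45 to 5.86 TPM, Csf1r at 9.43 to 11.7 against 11.5 to 13.1 TPM, Cd68 at 26.7 to 51.5 against 37.2 to 52.6 TPM and Ptprc at 0.656 to 1.02 against 0.958 to 1.27 TPM. The keratinocyte list summed to 31.9 to 34.5 against 21.4 to 33.2 TPM, with 4 of 8 tested and 0 called. The endothelial list summed to 50.6 to 51.0 against 57.2 to 58.3 TPM, with 2 of 5 tested, 1 higher and 1 lower. Kdr was higher (6.16 and 6.42 against 23.8 and 24.1 TPM, adjusted p = 0.000729 by limma). Tek was lower (44.3 and 43.7 against 33.9 and 32.6 TPM, adjusted p = 0.0299). The pluripotency list summed to 0.586 to 0.773 against 0.148 to 0.183 TPM, with 0 of 6 high enough to be tested and Dppa5a and Tdgf1 listed at 0. The part of these lists in the results was not tested, and in bulk RNA fewer cells of a type and less RNA per cell cannot be told apart.

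Most of the replication machinery fell with CX-5461. Of the 54 genes, 44 were lower and 0 were higher (limma on log2(TPM + 1), Benjamini-Hochberg adjusted p under 0.05 over all genes tested), where 8.21% of all genes tested were lower and 11.6% higher. A log2 difference of -1 or less was called for 32 of the genes (3.09% of all genes) and one of -2 or less for 17 (1.07% of all genes). The median log2 difference was -1.44 against 0.07 for all genes. Both CX-5461 libraries lay below both DMSO libraries for 47 of the genes, as they did for 26.3% of all genes, and above them for 1, Orc4, as they did for 38.2% of all genes. The summed level of the set was 1667 and 1553 TPM with DMSO and 702 and 703 TPM with CX-5461. The 10 genes that did not pass were Orc2, Orc3, Orc4, Orc5, Mcm9, Gins2, Pold4, Pole3, Pole4 and Rfc4. On this scale the difference of a gene near or under 1 TPM is understated. The number added before the log also moves genes across -2: with 0.1 in place of 1, Orc1 was at -2.05 instead of -1.66.

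**Figure D1:**
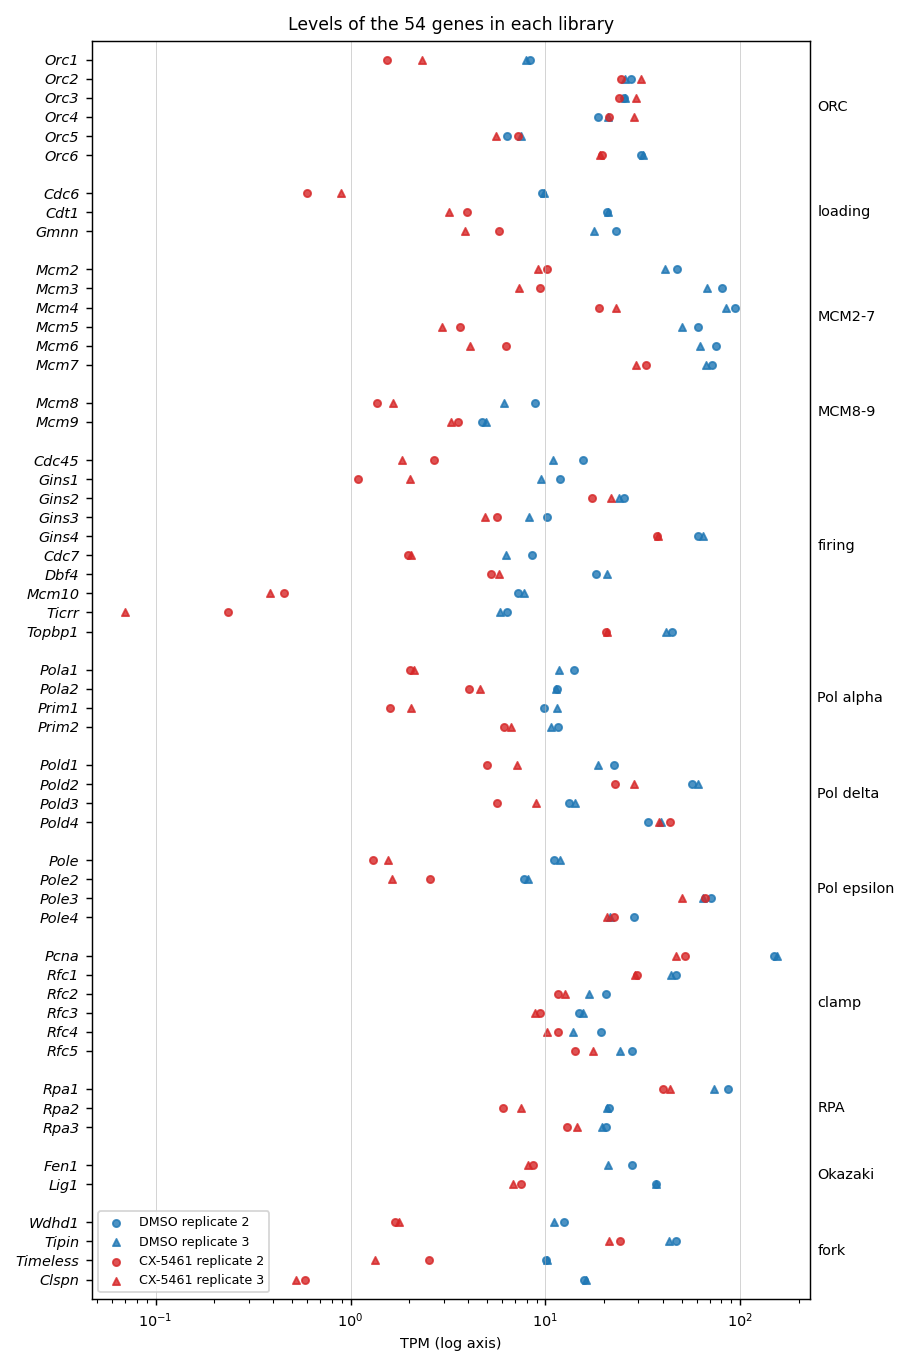
Level of each of the 54 genes in each library, in TPM on a log axis, grouped by complex. Circles are replicate 2 and triangles replicate 3, with DMSO in blue and CX-5461 in red. Red points lie left of both blue points for 47 genes, and the 4 libraries interleave for Orc2, Orc3, Orc5, Pold4, Pole3 and Pole4.

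The order of the levels changed as well. In the DMSO libraries Pcna stood highest at 148 and 155 TPM, followed by Mcm4 at 93.7 and 84.4 TPM, which overlapped Rpa1 at 86.2 and 73.1 TPM. In the CX-5461 libraries Pole3 (65.8 and 49.9 TPM) and Pcna (52.1 and 46.5 TPM) were highest and overlapped, and no gene of MCM2-7 was above 32.6 TPM. The lowest genes were Mcm9, at 4.71 and 4.94 TPM, in the DMSO libraries and Ticrr, at 0.234 and 0.0694 TPM, in the CX-5461 libraries. Across the 54 genes Spearman's rho between the DMSO level and the log2 difference was 0.11. It is given as a description because the genes share the 4 libraries and the DMSO level enters both quantities. The 1 added to TPM also shrinks the falls of low genes, so rho depends on that scale. With 0.1 added instead, Ticrr was at -4.70 in place of -2.63 and Pcna at -1.62 in place of -1.60.

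Leaving out any 1 library kept the direction of all 44 falls but not every call. The number of genes called lower was 38 without DMSO replicate 2, 37 without DMSO replicate 3, 31 without CX-5461 replicate 2 and 32 without CX-5461 replicate 3, where 6.09%, 5.77%, 2.79% and 2.49% of all genes were lower. In all 4 cases 29 of the 44 passed, among them the 17 with a log2 difference of -2 or less. None of the 10 other genes passed in any of the 4 cases. With no filter on low genes, 39 of the genes were lower (3.86% of all genes), and the calls of Gins3 (adjusted p = 0.0688), Pold3 (0.0943), Rfc2 (0.0776), Rfc5 (0.0603) and Rpa3 (0.0571) ended. Without limma's trend and robust options, those of Pold3 (0.0761), Rfc2 (0.0644) and Rfc5 (0.0547) ended.

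**Figure D2:**
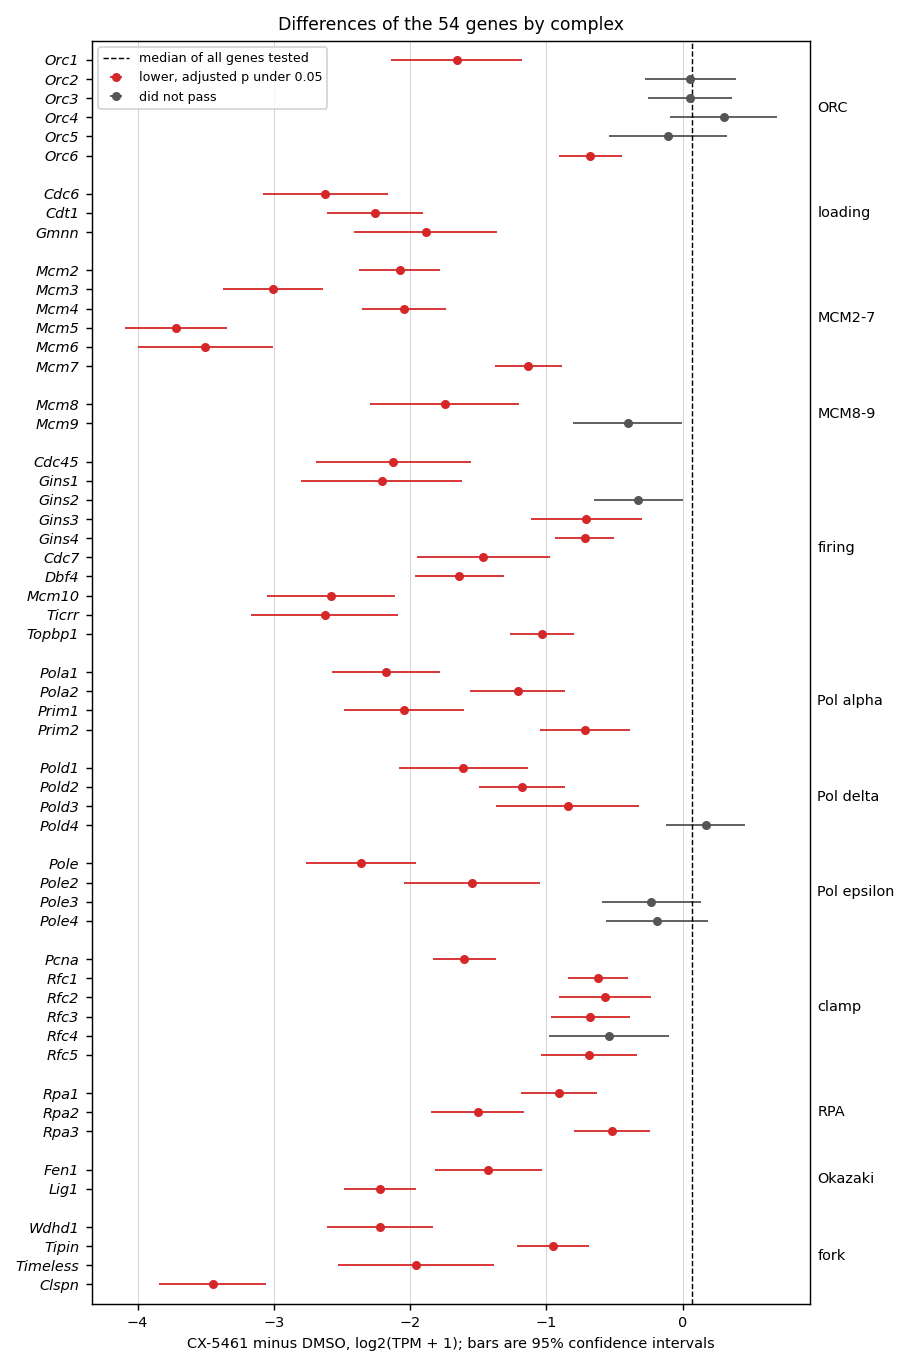
Log2 difference (CX-5461 minus DMSO, log2(TPM + 1)) of each gene with its 95% confidence interval, grouped by complex, with the median of all genes tested as a dashed line. Red genes were lower at an adjusted p under 0.05 and gray genes did not pass. Intervals of gray genes sit close to the dashed line within ORC, polymerase delta and polymerase epsilon, while at least 1 other subunit of each lies more than 1 log2 unit below 0.

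Promoter sequences from RefSeq (GRCm38.p6, the mm10 build), which run from 250 bases before to 50 after each start site, were available for 45 of the 54 genes in 55 windows. Gmnn, Mcm4, Gins1, Gins2, Gins4, Prim2, Pole, Rfc2 and Tipin had no window. They are shown because so many of these genes moved together and because E2F factors are known regulators of the family. Each window was searched on both strands for the E2F-type letters TTTCCCGC, TTTCGCGC, TTTGCCGC and TTTGGCGC, which stand in capitals below as they read on the gene's strand.

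Mcm5, chr8:75109329-75109388, plus strand: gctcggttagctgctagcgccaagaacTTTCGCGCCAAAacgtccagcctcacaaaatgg
Mcm6, chr1:128359736-128359835, minus strand: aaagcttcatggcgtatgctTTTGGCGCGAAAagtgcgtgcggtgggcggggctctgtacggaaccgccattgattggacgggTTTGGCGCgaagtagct
Cdc6, chr11:98907991-98908050, plus strand: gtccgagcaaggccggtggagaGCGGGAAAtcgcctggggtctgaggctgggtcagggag
Pola1, chrX:93632256-93632315, minus strand: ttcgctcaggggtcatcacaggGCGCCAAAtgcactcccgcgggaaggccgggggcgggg
Orc1, chr4:108579416-108579445, plus strand: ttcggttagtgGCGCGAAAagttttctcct
Mcm7, chr5:138172030-138172059, minus strand: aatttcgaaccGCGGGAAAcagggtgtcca
Orc3, chr4:34614965-34614994, minus strand: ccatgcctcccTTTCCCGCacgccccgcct
Pole4, chr6:82652890-82652919, minus strand: ctctacccggcGCGGGAAAggggccgaaat

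The first 6 stretches belong to genes that fell and the last 2 to genes that did not pass. In Mcm5 and Mcm6 the 12 capitals in a row hold 2 overlapping matches, 1 on each strand, and Mcm6 has another match 47 bases before the start. The first 4 stretches touch no annotated exon (GENCODE M21), and the other 4 touch at least 1. E2F-type letters were present in 19 of the 45 genes with a window (42.2%) and in 704 of 27025 genes with a window in the whole table (2.60%). Those 27025 include genes outside the 14621 tested, whereas all 54 genes were tested. The share among tested genes was not computed, here or for the letters below. Among the genes that fell the share was 17 of 36 (47.2%), with 8 of 14 (57.1%) for those with a log2 difference of -2 or less and 9 of 22 (40.9%) for the rest. Of the 9 that did not pass, 2 held the letters (22.2%), Orc3 and Pole4.

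The other letters searched differed less between these genes and the whole table. The GC box letters GGGCGG were in 34 of 45 genes (75.6%) against 38.2% of all genes with a window, and CCAAT was in 26 (57.8%) against 41.1%. The letters TTTGAA, known from the CHR element of genes that peak late in the cell cycle, were in 7 (15.6%) against 20.2%. CCAAT was in 10 of 14 genes with the larger falls (71.4%), 12 of 22 other fallers (54.5%) and 4 of 9 not passed (44.4%). That order was the same as for the E2F-type letters, so it was not particular to them. GC box letters were in 10, 17 and 7 of these genes and TTTGAA in 2, 5 and 0, without that order. Differences between these groups of genes were not tested. All these counts are matches of letters in a fixed window, with no measure of binding.

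**Figure D3:**
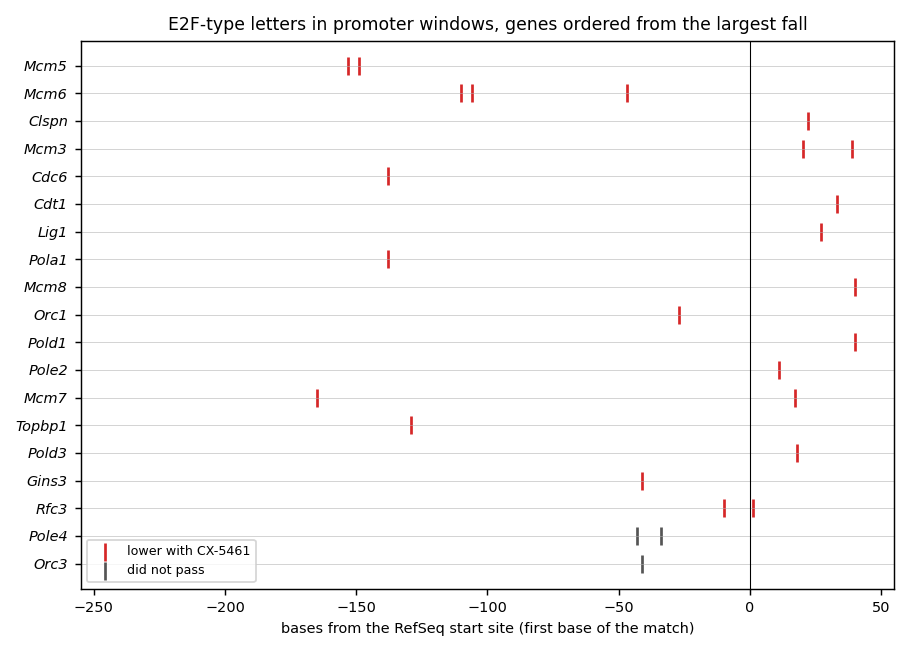
Position of each match to the E2F-type letters, as the first base of the match in bases from the RefSeq start site (vertical line), for the 19 genes that hold one, ordered from the largest fall at the top. Red marks are genes that were lower with CX-5461 and gray marks genes that did not pass. All matches lie between 165 bases before and 40 bases after the start.

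Within the origin recognition complex, which binds origin DNA as a ring of subunits, Orc1 and Orc6 fell and the other 4 genes did not pass. Orc1, the subunit whose protein is known to rise and fall with the cell cycle in mammals, stood at 8.36 and 7.99 TPM with DMSO and 1.54 and 2.32 TPM with CX-5461. Its log2 difference was -1.66 (SE 0.20, adjusted p = 0.00455 by limma), which left 23.6% of the DMSO mean. Orc6, the smallest subunit and the least firmly bound, went from 31.0 and 31.8 to 19.5 and 19.0 TPM, a log2 difference of -0.68 (adjusted p = 0.00707). Both CX-5461 values lay below both DMSO values for Orc1 and Orc6, as they did for 26.3% of all genes tested. The call of Orc6 ended without CX-5461 replicate 2 (adjusted p = 0.0721) and without CX-5461 replicate 3 (adjusted p = 0.0915).

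The core subunits behaved differently in level. Orc2 measured 27.4 and 25.5 TPM with DMSO and 24.4 and 30.9 TPM with CX-5461, a log2 difference of 0.05 with a 95% interval of -0.28 to 0.39 (adjusted p = 0.805). Orc3, its partner in the core, measured 25.2 and 25.7 and 23.8 and 29.3 TPM (log2 difference 0.05, interval -0.26 to 0.36, adjusted p = 0.800). In both genes the CX-5461 libraries lay on either side of the DMSO libraries, and the intervals leave out a fall of the size seen in Orc1. Orc4, an ATP-binding subunit, was at 18.7 and 20.9 TPM with DMSO and 21.2 and 28.4 TPM with CX-5461, with both CX-5461 values above both DMSO values (log2 difference 0.30, interval -0.09 to 0.69, adjusted p = 0.236). Orc5, likewise an ATP-binding subunit, was at 6.37 and 7.50 and 7.20 and 5.57 TPM, again overlapping (log2 difference -0.11, interval -0.54 to 0.33, adjusted p = 0.694). The signs of these small differences were not stable. Without CX-5461 replicate 3 they were -0.11 for Orc2, -0.09 for Orc3 and 0.05 for Orc5, and with the TPM rescaled by medians of ratios those of Orc2 and Orc3 were both -0.01. Per library, the ratio of Orc1 to Orc2 was 0.306 and 0.313 with DMSO and 0.0631 and 0.0752 with CX-5461. With 2 libraries a group, an exact permutation test of such a ratio cannot go below p = 0.333.

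All 3 loading factors fell. Cdc6, the ATPase that joins the origin recognition complex to recruit MCM2-7, measured 9.61 and 9.79 TPM with DMSO and 0.596 and 0.892 TPM with CX-5461. That was a log2 difference of -2.62 (SE 0.18, adjusted p = 0.00103 by limma), and 7.67% of the DMSO mean was left. Cdt1, which escorts MCM2-7 to the origin, went from 20.6 and 20.9 TPM to 3.94 and 3.19 TPM (log2 difference -2.26, adjusted p = 0.000729). Gmnn encodes geminin, the inhibitor of CDT1, and it fell together with its target, from 22.9 and 17.8 TPM to 5.79 and 3.86 TPM (log2 difference -1.89, SE 0.21, adjusted p = 0.00409). Both CX-5461 values lay below both DMSO values for all 3 genes, as they did for 26.3% of all genes tested. The ratio of Gmnn to Cdt1 was 1.11 and 0.854 with DMSO and 1.47 and 1.21 with CX-5461, whereas the ratio of Cdc6 to Cdt1 was 0.466 and 0.469 against 0.151 and 0.279.

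The MCM2-7 helicase, the ring that unwinds DNA, fell in all 6 subunits, by unequal amounts. Mcm5, which forms the gate of the ring with Mcm2, had the largest log2 difference of the 54 genes on log2(TPM + 1). This rank depends on the 1 added: with 0.1 added instead, Ticrr (-4.70) and Clspn (-4.62) fell more than Mcm5 (-4.04). Mcm5 lies at chr8:75109569-75128439 on the plus strand, and its level was 61.0 and 50.3 TPM with DMSO and 3.66 and 2.93 TPM with CX-5461. Its log2 difference was -3.72 (SE 0.15, 95% interval -4.09 to -3.34, adjusted p = 0.000278 by limma), a 16.9-fold lower mean. Mcm6 went from 75.4 and 61.9 TPM to 6.28 and 4.12 TPM, a log2 difference of -3.50 (SE 0.20, adjusted p = 0.000689). Upstream stretches of Mcm5 and Mcm6 with paired E2F-type letters were printed above. Matches on both strands were also present in genes that fell less, Mcm7 (log2 difference -1.13) and Rfc3 (-0.68). Whether the letters relate to the size of the fall was not tested. Mcm3, through which the ring meets the origin recognition complex and CDC6, went from 80.2 and 67.2 TPM to 9.32 and 7.32 TPM (log2 difference -3.00, SE 0.15, adjusted p = 0.000404). Mcm2, the subunit that also chaperones histones, went from 47.2 and 40.9 TPM to 10.2 and 9.15 TPM (log2 difference -2.08, adjusted p = 0.000591). Mcm4, a main target of the DDK kinase, went from 93.7 and 84.4 TPM to 18.8 and 23.0 TPM (log2 difference -2.04, adjusted p = 0.000690).

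Mcm7 fell least of the 6. It lies at chr5:138164583-138172422 on the minus strand and measured 71.3 and 66.5 TPM with DMSO and 32.6 and 29.1 TPM with CX-5461, which left 44.8% of the DMSO mean. Its log2 difference was -1.13 (SE 0.10, 95% interval -1.38 to -0.89, adjusted p = 0.00193 by limma), and its interval does not reach those of the other 5 subunits. All 6 calls held without any 1 library. The highest of the 6 subunits exceeded the lowest 1.98- and 2.06-fold in the DMSO libraries (Mcm4 over Mcm2) and 8.91- and 9.94-fold in the CX-5461 libraries (Mcm7 over Mcm5). Accordingly the ratio of Mcm5 to Mcm7 dropped from 0.856 and 0.755 to 0.112 and 0.101. Annotated exons of Mir25 and Mir93 lie within exons of Mcm7, and the exons of Cops6 and Ap4m1 on the other strand overlap it by 64 and 321 bases.

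**Figure D4:**
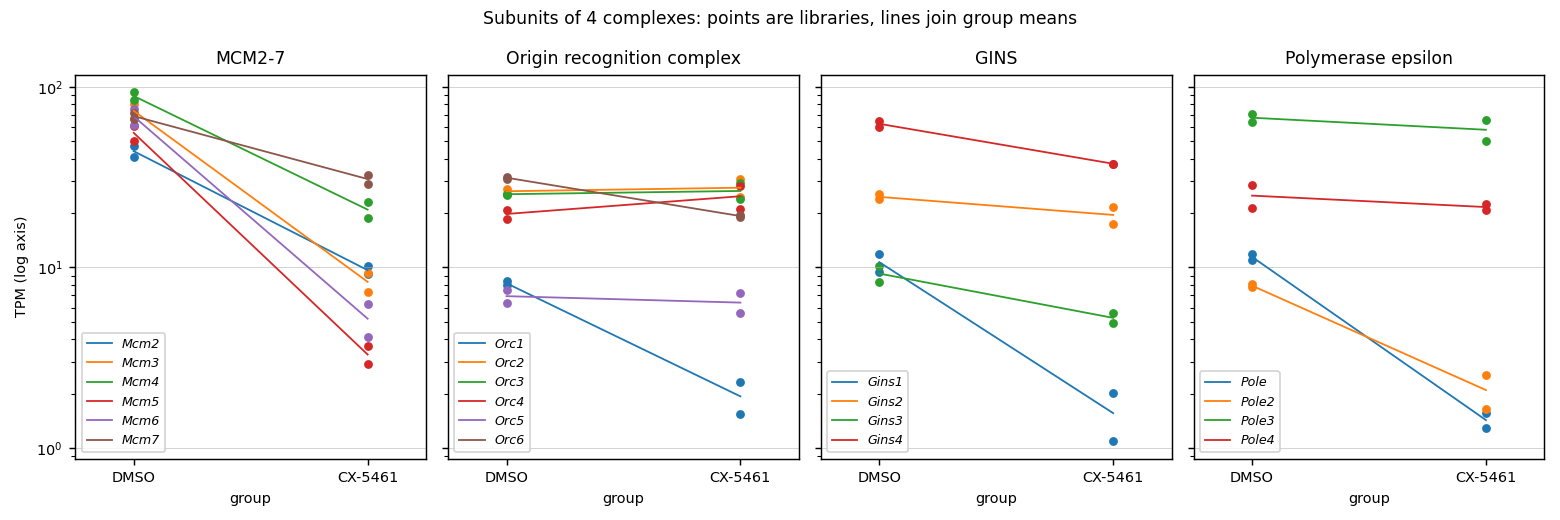
Level (TPM, log axis) of each subunit of MCM2-7, the origin recognition complex, GINS and polymerase epsilon in the DMSO and CX-5461 libraries. Points are libraries and lines join the group means. The MCM2-7 subunits sit within about 2.06-fold of each other with DMSO and spread to 9.94-fold with CX-5461, and in each of the other 3 complexes shallow lines accompany steep ones.

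Mcm8 and Mcm9 are not part of the ring but form a helicase known for its role in repair by homologous recombination. Mcm8 fell from 8.87 and 6.14 TPM to 1.36 and 1.65 TPM (log2 difference -1.75, adjusted p = 0.00562 by limma), and its call ended without CX-5461 replicate 2 (adjusted p = 0.0509). Mcm9 measured 4.71 and 4.94 TPM with DMSO and 3.55 and 3.26 TPM with CX-5461. The groups did not overlap, but the log2 difference of -0.40 did not pass (adjusted p = 0.138), although it did in limma voom on the reconstructed reads (adjusted p = 0.0230). Of the exon bases of Mcm9, 1748 (19.2%) overlap Asf1a on the other strand, so that without knowledge of the strand used in counting their reads cannot be told apart. Asf1a, a histone chaperone, was at 12.9 and 9.84 TPM with DMSO and 7.16 and 7.35 TPM with CX-5461.

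Among the firing factors 9 of 10 fell. Cdc45, a subunit of the CMG helicase, measured 15.7 and 11.0 TPM with DMSO and 2.70 and 1.84 TPM with CX-5461 (log2 difference -2.12, adjusted p = 0.00355 by limma). The 4 GINS genes encode a single tight complex and differed in size of change. Gins1 fell most, from 11.9 and 9.47 TPM to 1.09 and 2.03 TPM (log2 difference -2.21, SE 0.24, adjusted p = 0.00351). Gins4, the most abundant GINS transcript, went from 60.3 and 64.6 TPM to 37.5 and 37.6 TPM (log2 difference -0.72, adjusted p = 0.00503). Gins3 went from 10.2 and 8.27 TPM to 5.61 and 4.91 TPM (log2 difference -0.71, adjusted p = 0.0345). The ratio of Gins1 to Gins2 was 0.470 and 0.398 with DMSO and 0.0628 and 0.0936 with CX-5461. Without a single library the call of Gins3 ended in each case (adjusted p = 0.104 without DMSO replicate 2, 0.0615 without DMSO replicate 3, 0.121 without CX-5461 replicate 2 and 0.198 without CX-5461 replicate 3). That of Gins4 ended without CX-5461 replicate 2 (adjusted p = 0.0664) and replicate 3 (adjusted p = 0.0733).

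Gins2 was the firing factor that did not pass. It measured 25.4 and 23.8 TPM with DMSO and 17.4 and 21.7 TPM with CX-5461, so both CX-5461 values lay below both DMSO values (log2 difference -0.33, 95% interval -0.65 to 0.00, adjusted p = 0.141 by limma). Of its 4097 exon bases, 2758 (67.3%) overlap exons of Gse1 on the other strand. Gse1 was at 19.8 and 21.4 TPM with DMSO and 25.7 and 27.2 TPM with CX-5461. Whether the counting used strand is not given in the sources used here, so the level of Gins2 is uncertain. In limma voom on the reconstructed reads Gins2 passed (log2 difference -0.40, adjusted p = 0.0311).

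The kinase that triggers firing fell in both parts. Cdc7, its catalytic subunit, measured 8.49 and 6.24 TPM with DMSO and 1.98 and 2.04 TPM with CX-5461 (log2 difference -1.46, adjusted p = 0.00665 by limma). Dbf4, the activating subunit, measured 18.1 and 20.6 TPM and 5.26 and 5.78 TPM (log2 difference -1.64, adjusted p = 0.00160). The call of Cdc7 ended without CX-5461 replicate 2 (adjusted p = 0.0565) and replicate 3 (adjusted p = 0.0602).

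Of the loaders of CDC45 and GINS, Ticrr, also known as treslin, showed the largest ratio of the 54 genes. It measured 6.34 and 5.86 TPM with DMSO and 0.234 and 0.0694 TPM with CX-5461, a 40.3-fold lower mean. By the reconstruction these were 652.5 and 678.5 reads against 24 and 7 reads, so the low values carry a wide counting error. Its log2 difference on log2(TPM + 1) was -2.63 (SE 0.22, adjusted p = 0.00170 by limma). Mcm10, which helps the CMG helicase start to move, went from 7.25 and 7.77 TPM to 0.456 and 0.387 TPM (log2 difference -2.58, adjusted p = 0.00120). Topbp1, the scaffold that binds treslin and also activates the ATR checkpoint kinase, kept more of its level, from 44.7 and 41.4 TPM to 20.5 and 20.6 TPM (log2 difference -1.03, adjusted p = 0.00213). For these 3 genes both CX-5461 values lay below both DMSO values, as they did for 26.3% of all genes tested. The 3 calls held without any 1 library.

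All 4 genes of polymerase alpha-primase fell. Pola1, the catalytic subunit, measured 14.0 and 11.8 TPM with DMSO and 2.02 and 2.10 TPM with CX-5461 (log2 difference -2.17, SE 0.16, adjusted p = 0.00118 by limma). Prim1, the primase catalytic subunit, went from 9.78 and 11.5 TPM to 1.59 and 2.05 TPM (log2 difference -2.05, adjusted p = 0.00189). The accessory partner of each fell less. Pola2 went from 11.4 and 11.3 TPM to 4.06 and 4.62 TPM (log2 difference -1.21, adjusted p = 0.00435). Prim2, the large primase subunit with an iron-sulfur cluster, went from 11.5 and 10.7 TPM to 6.12 and 6.67 TPM (log2 difference -0.72, adjusted p = 0.0182). With DMSO the 4 transcripts lay within 1.43- and 1.10-fold of each other, and with CX-5461 they spread to 3.86- and 3.25-fold. The call of Prim2 ended without any 1 library (adjusted p = 0.0599 without DMSO replicate 2, 0.0605 without DMSO replicate 3, 0.117 without CX-5461 replicate 2 and 0.106 without CX-5461 replicate 3).

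In polymerase delta, the lagging-strand enzyme, 3 of 4 subunits fell. The catalytic subunit Pold1 measured 22.5 and 18.5 TPM with DMSO and 5.02 and 7.18 TPM with CX-5461 (log2 difference -1.61, SE 0.19, adjusted p = 0.00464 by limma). Pold2, the subunit that links the others, went from 56.7 and 60.6 TPM to 22.7 and 28.3 TPM (log2 difference -1.18, adjusted p = 0.00350). Pold3, which binds PCNA, went from 13.1 and 14.1 TPM to 5.65 and 8.97 TPM (log2 difference -0.84, adjusted p = 0.0436). Pold4, the smallest subunit, measured 33.8 and 39.0 TPM with DMSO and 43.8 and 38.2 TPM with CX-5461, with overlapping groups (log2 difference 0.17, 95% interval -0.12 to 0.46, adjusted p = 0.361). The ratio of Pold1 to Pold4 was 0.667 and 0.475 against 0.115 and 0.188. Pold3 was no longer called without DMSO replicate 2 (adjusted p = 0.111), DMSO replicate 3 (0.165) or CX-5461 replicate 2 (0.147).

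Polymerase epsilon, the leading-strand enzyme, divided evenly. Pole, the catalytic subunit, measured 11.0 and 11.9 TPM with DMSO and 1.30 and 1.56 TPM with CX-5461 (log2 difference -2.36, SE 0.16, adjusted p = 0.000983 by limma), which left 12.5% of the DMSO mean. Pole2, which ties the polymerase to the CMG helicase, went from 7.77 and 8.09 TPM to 2.55 and 1.64 TPM (log2 difference -1.54, adjusted p = 0.00611), a call that ended without DMSO replicate 3 (adjusted p = 0.0512). The other subunits, Pole3 and Pole4, are small histone-fold proteins, and Pole3 also serves in a chromatin remodelling complex. Pole3 was at 71.0 and 64.0 TPM with DMSO and 65.8 and 49.9 TPM with CX-5461 (log2 difference -0.23, 95% interval -0.60 to 0.14, adjusted p = 0.321). Pole4 was at 28.6 and 21.4 TPM and 22.4 and 20.8 TPM (log2 difference -0.19, interval -0.57 to 0.19, adjusted p = 0.422). The groups overlapped for both, and the difference of Pole4 was 0.01 without DMSO replicate 2. The ratio of Pole to Pole3 was 0.155 and 0.185 with DMSO against 0.0197 and 0.0312 with CX-5461. Whether subunits of 1 complex differed from each other beyond the spread between libraries was not tested.

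The sliding clamp fell more than its loader. Pcna, the ring that holds polymerases on DNA, measured 148 and 155 TPM with DMSO and 52.1 and 46.5 TPM with CX-5461 (log2 difference -1.60, SE 0.09, adjusted p = 0.000618 by limma). Of the 5 genes of replication factor C, which opens and closes the clamp, 4 fell, with log2 differences between -0.69 for Rfc5 and -0.57 for Rfc2. Rfc1, the large subunit, fell by 0.62 (adjusted p = 0.00822) and Rfc3 fell by 0.68 (adjusted p = 0.0144) on the log2 scale. Rfc4, which had the smallest difference in the group, was at 19.2 and 13.8 TPM with DMSO and 11.6 and 10.2 TPM with CX-5461 (log2 difference -0.54, 95% interval -0.98 to -0.10, adjusted p = 0.0865). It passed after rescaling by medians of ratios (adjusted p = 0.0428). Its groups did not overlap, and 194 of its exon bases (12.7%) overlap Eif4a2 on the other strand, at 148 and 120 TPM with DMSO and 139 and 152 TPM with CX-5461. The ratio of Pcna to Rfc1 was 3.19 and 3.50 against 1.76 and 1.62.

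The loader calls were less firm than that of Pcna, which held without any 1 library. Rfc1 was not called without CX-5461 replicate 2 (adjusted p = 0.0793) or replicate 3 (0.104). Rfc2 was not called without DMSO replicate 2 (0.0948), CX-5461 replicate 2 (0.197) or CX-5461 replicate 3 (0.170). Rfc3 was not called without DMSO replicate 3 (0.0636), CX-5461 replicate 2 (0.0866) or CX-5461 replicate 3 (0.123). Rfc5 was not called without any 1 library (0.0872 and 0.0658 without DMSO replicates 2 and 3, 0.145 and 0.0766 without CX-5461 replicates 2 and 3). Both CX-5461 values were below both DMSO values for all 5 loader genes, as they were for 26.3% of all genes tested. The 5 genes share the same 4 libraries, so this does not make the calls firmer.

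RPA, the complex that coats single-stranded DNA, fell in its 3 genes. Rpa2, the subunit that checkpoint kinases phosphorylate, measured 21.1 and 20.7 TPM with DMSO and 6.02 and 7.46 TPM with CX-5461 (log2 difference -1.51, adjusted p = 0.00213 by limma). Rpa1, the large DNA-binding subunit, fell by 0.91 on the log2 scale (adjusted p = 0.00528). Rpa3, the smallest subunit, went from 20.5 and 19.6 TPM to 13.0 and 14.5 TPM (log2 difference -0.52, adjusted p = 0.0294). Rpa2 held without any 1 library. Rpa1 was not called without CX-5461 replicate 2 (adjusted p = 0.0653) or replicate 3 (0.0557), and Rpa3 without any 1 library (0.0794 without either DMSO library, 0.178 and 0.126 without CX-5461 replicates 2 and 3) or in limma voom on the reconstructed reads (0.0556).

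Both enzymes of Okazaki fragment maturation fell and kept their calls without any 1 library. Lig1, the ligase that seals the fragments, measured 36.8 and 37.0 TPM with DMSO and 7.46 and 6.83 TPM with CX-5461 (log2 difference -2.22, SE 0.11, adjusted p = 0.000395 by limma). Fen1, the nuclease that trims their flaps, went from 27.9 and 21.05 TPM to 8.63 and 8.15 TPM (log2 difference -1.43, adjusted p = 0.00385). Exons of the annotated gene Gm10143, on the other strand, overlap 1909 of the 2422 exon bases of Fen1. Without knowledge of the strand used in counting, the level of Fen1 is therefore uncertain.

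Among the proteins that travel with the fork, all 4 genes fell. Clspn encodes claspin, which couples the helicase to the checkpoint kinase CHK1, and it measured 15.8 and 16.1 TPM with DMSO and 0.583 and 0.525 TPM with CX-5461. This was a 28.8-fold lower mean, from 1167 and 1336 reconstructed reads to 43 and 38 reads, with a log2 difference of -3.45 (SE 0.16, adjusted p = 0.000359 by limma). Wdhd1, the mouse AND-1 that links polymerase alpha to the helicase, fell by 2.22 (adjusted p = 0.00105) and Timeless, of the fork protection complex, fell by 1.96 (adjusted p = 0.00464) on the log2 scale. Tipin, the binding partner of Timeless, had the smallest difference of the 4, from 46.5 and 43.2 TPM to 24.2 and 21.2 TPM (log2 difference -0.95, adjusted p = 0.00398). The call of Tipin ended without CX-5461 replicate 3 (adjusted p = 0.0531). The ratio of Clspn to Tipin was 0.340 and 0.372 with DMSO and 0.0241 and 0.0247 with CX-5461.

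Several of the genes share a promoter region with a gene read in the other direction, and the values of those partners are given here. Of the partners that are protein coding and start within 1000 bases on the other strand, 11 of the genes that fell had 1 that was tested. For these 11 partners, 0 were lower and 0 higher by limma, 0 had an unadjusted p under 0.05, and the lowest adjusted p was 0.216. Over all genes tested 8.21% were lower and 11.6% higher, so 0 of 11 is a count near the background. Their log2 differences ran from -0.43 to 0.32. Prkdc, the catalytic subunit of DNA-dependent protein kinase, starts 466 bases from Mcm4 and measured 10.2 and 8.85 TPM with DMSO and 8.67 and 9.73 TPM with CX-5461. Prpf38a, a splicing factor, starts 87 bases from Orc1 and measured 18.1 and 16.7 TPM with DMSO and 19.9 and 20.4 TPM with CX-5461. Abhd12, a lipase, starts 659 bases from Gins1 and measured 60.5 TPM in both DMSO libraries and 62.1 and 63.8 TPM with CX-5461. The values of the partner of Pole, Pxmp2, scattered most, at 5.43 and 2.85 TPM with DMSO and 1.62 and 4.22 TPM with CX-5461. The difference within each pair was not tested.

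**Figure D5:**
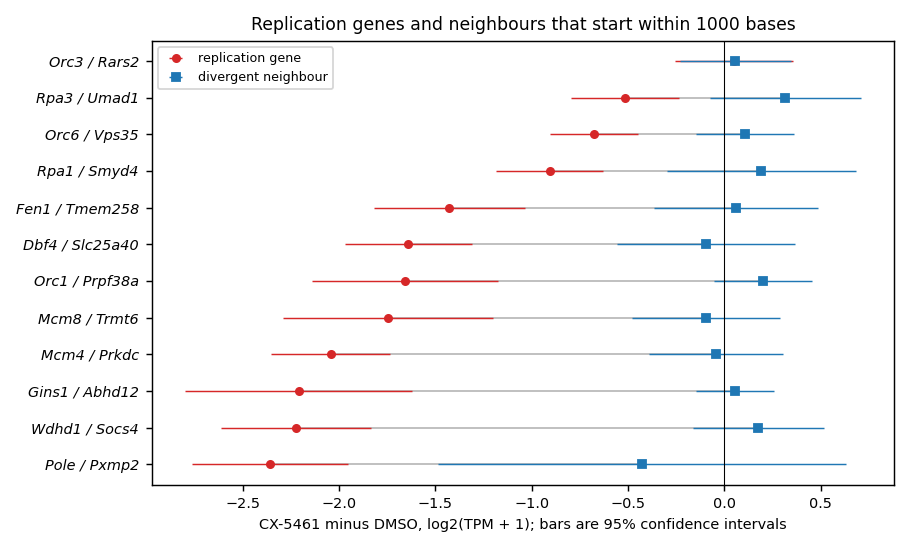
Log2 difference (CX-5461 minus DMSO, log2(TPM + 1)) with 95% confidence intervals for 12 replication genes (red circles) and the tested protein-coding gene that starts within 1000 bases on the other strand (blue squares). Partners of the 11 genes that fell lie between -0.43 and 0.32, and Orc3, which did not pass, lies next to its partner Rars2.

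Exon overlap with a gene on the other strand was present for 12 of the 44 genes that fell and 5 of the 10 that did not pass. Besides Gins2, Mcm9 and Rfc4, it touched Orc2, whose exons share 1150 bases (29.8%) with Nif3l1, and Orc4, whose exons share 446 bases with Acvr2a. Acvr2a was itself higher with CX-5461 (23.6 and 20.9 against 30.9 and 33.1 TPM, adjusted p = 0.0264 by limma). So was Cops6, which overlaps Mcm7 (195 and 169 against 232 and 256 TPM, adjusted p = 0.0429). The other overlapping genes that were tested were not called. Whether such reads entered the levels of Orc4 and Mcm7 was not tested. Among the genes that fell, Fen1 shares 1909 of its 2422 exon bases with Gm10143, Rfc2 shares 952 bases with Lat2 and Rfc5 shares 499 bases with Wsb2.

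Other genes of replication moved less uniformly. A list of 43 accessory genes, holding helicases, topoisomerases, clamp unloaders, checkpoint sensors and the cyclins and kinase of S phase, had 42 tested members, of which 21 were lower and 0 higher, 15 of them by a log2 difference of -1 or less. Over all genes tested these shares were 8.21% lower, 11.6% higher and 3.09% at -1 or less. The list's median log2 difference was -0.51, and 13 were lower without CX-5461 replicate 3, where 2.49% of all genes were. Top2a, the topoisomerase that untangles sister chromatids, measured 82.0 and 71.4 TPM with DMSO and 3.64 and 3.04 TPM with CX-5461 (log2 difference -4.16, adjusted p = 0.000177 by limma). Ccna2, the cyclin of S phase and G2, went from 67.9 and 74.4 TPM to 6.48 and 6.28 TPM (log2 difference -3.29, adjusted p = 0.000177). Ccne1, the cyclin that drives entry into S phase, went from 78.8 and 66.3 TPM to 23.9 and 21.4 TPM (log2 difference -1.63, adjusted p = 0.00118). Pif1, a helicase that unwinds G-quadruplexes, was at 7.36 and 6.03 TPM with DMSO and 0.0444 and 0.0452 TPM with CX-5461, the latter from 2 reconstructed reads in each library (log2 difference -2.88, adjusted p = 0.00136). For these 4 genes the groups did not overlap, as is likely for genes picked by the smallest adjusted p. Another 21 tested genes of the list did not pass, and its log2 differences reached 0.32 (Ten1).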

How the data were processed

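RNA-seq libraries of 2 groups of 2 were compared, DMSO against CX-5461. The labels call them parallel replicates and do not mention separate cultures, in which case the p-values reflect variation among these libraries alone, perhaps only technical. The authors deposited TPM values, in 1 table. Build mm10 is named in the submitters' processing notes, whereas the sources used here do not give the aligner, counter, annotation or strand of counting. TPM is relative to all other genes in a library. Columns were matched to samples by treatment and replicate number in their names, with 0 columns unused.

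Log2(TPM + 1) of each gene whose mean reached 1 TPM was compared by limma 3.58.1 (lmFit, eBayes with trend and robust) in R 4.3.3, with Benjamini-Hochberg adjustment over all 14621 genes and a threshold of 0.05. On simulated data with known changes the procedure recovered most of them, but more of its calls were false than the threshold promises. Single calls are therefore less sure than it promises, and those near it are weak. The simulation changed fewer genes than were called here and gave all genes a common dispersion. Its share of false calls need not hold for these data. Intervals are 95% confidence intervals from limma. Coordinates and exons came from GENCODE M21 (mm10), promoters from RefSeq (GRCm38.p6). Reads were reconstructed as TPM times exon length times a constant per library, and 69.7% of the 70108 values checked lay within 0.01 of a whole number. Python 3.11.15, pandas 2.3.3 and matplotlib 3.10.9 were used for the reference tables and plots.

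The 54 genes and the accessory and marker lists were chosen with earlier results of these data known. Every one of the 54 was named once, with library values in full for the largest and smallest difference in each complex, each gene that did not pass, and each subunit of MCM2-7, GINS and the polymerases. Of the accessory genes, the 4 with the smallest adjusted p were named. Alternatives were pseudocounts of 0.1 and 5, other filters, 3 rescalings, plain limma, a replicate block, each library left out and, added after the data were seen, voom on the reconstructed reads.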

Additional observations from a re-analysis of the deposited data

How the results depend on the processing

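Of the 54 genes, 44 were lower with pseudocounts of 0.1 and 5 and after quantile normalization, 45 after median-of-ratios scaling, after rescaling without mitochondrially encoded genes and the 20 highest others, with the replicate block and in limma voom on reconstructed reads (added after the data were seen, 43 of them shared with the calls reported), 41 without trend and robust, 39 without a filter, and 40 of the 49 tested with a filter of mean 5 TPM. 0 were higher in each. The median log2 difference of the 54 was -1.57 with a pseudocount of 0.1, -0.93 with 5, -1.21 with the filter of 5 TPM, -1.50 with median-of-ratios scaling, -1.56 after rescaling without those genes, -1.63 in voom, and -1.52 to -1.25 with 1 library left out. Over all genes, 1051 were higher without a filter, 1128 without trend and robust, and 2180 lower in voom. With 1 library left out, 364 to 891 were lower and 237 to 2047 higher, 13 to 16 accessory genes were lower and 0 to 1 higher. Rescaling without mitochondrially encoded genes and the 20 highest others gave 1762 lower and 1568 higher, against 1201 and 1694, and moved the median of all genes from 0.07 to -0.01.

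Signs turned only for genes near 0 that were never called. Orc2 was at -0.0094 with median-of-ratios scaling, -0.0076 with quantile normalization and -0.026 after rescaling, and Orc3 at -0.013, -0.017, -0.030 and, in voom, -0.0033. With 1 library left out, Orc2 ranged from -0.11 to 0.22, Orc3 from -0.093 to 0.19, Orc5 from -0.27 to 0.051 and Pole4 from -0.39 to 0.0095. The causes were not tested. Rfc4 passed after rescaling (adjusted p = 0.0345 by limma) and with the replicate block (0.0479).

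The labels do not say what same-numbered libraries share beyond the number, and their deviations correlated at 0.03 over all genes and at 0.16 over the 54. With the replicate block 1100 genes were lower and 1589 higher, 19 accessory genes were lower, and Rfc4 was the call it changed among the 54. The smallest log2 difference called among the 54 genes was that of Rpa3, -0.52.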
